A study of Mus musculus with 32 samples.

Results

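The gene set described here holds 39 mouse genes of the amino acid stress response and the unfolded protein response, followed through the making of primordial germ cell-like cells (PGCLCs, germ cell precursors made in culture). A member was measured where the array's platform annotation gave a probe set exactly its symbol and no other. Where several probe sets did so, the one with the highest mean over all arrays was used. This gave 38 of the 39 genes, out of 18193 genes with such a probe set. Pycr1, which makes the last step of proline synthesis, had none. All 38 passed a filter that asked for at least 1 group mean at or above 4.05 on the log2 scale, the 40th percentile of all values. Of all genes, 15497 passed it. Cebpb did so only through 1 of the 16 groups.

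The study compared PGCLCs made by introduced transcription factors (TF-PGCLCs) with PGCLCs made by cytokines (Ck-PGCLCs), their starting cells and embryo cells, in 16 groups of 2 arrays each. All newly submitted arrays came from 1 male parental embryonic stem cell (ESC) clone on a C57BL/6 + 129 background and from its derivatives. That clone carries the reporters Blimp1-mVenus and stella-ECFP and the doxycycline-dependent activator rtTA at the Rosa26 locus. Derived lines add piggyBac transgenes behind a tetO and minimal CMV promoter: Blimp1, Prdm14 and Tfap2c (BP14A), Blimp1 and Prdm14 (BP14), Prdm14 and Tfap2c (P14A) or Prdm14 alone (P14). Epiblast-like cells (EpiLCs) were made from the parental clone over 36 h. For the factor route, EpiLCs were aggregated with doxycycline at 1.5 µg/ml and measured at day 2, and for BP14A also at day 4. The control was the parental clone aggregated with doxycycline for 2 days, with no introduced factor. The cytokine route used the parental clone with 5 added proteins and was measured at day 2 and day 4. These were BMP4 (500 ng/ml), BMP8A (likewise 500), SCF (100), EGF (50) and, in units rather than mass, 1000 U/ml of LIF. BP14A ESCs in medium with 2 kinase inhibitors and LIF (2i+LIF) were measured without doxycycline and, sorted for stella-ECFP, after 2 days with it. A set of 10 earlier arrays on a C57BL/6 background covered male Blimp1-mVenus, stella-ECFP ESCs in 2i+LIF, EpiLCs at 48 h and Ck-PGCLCs at day 6, together with embryo epiblast at E5.5 and stella-EGFP PGCs at E9.5, both of unknown sex. The labels mark the RNA as amplified. They do not say whether the arrays of a group came from separate cultures or litters, so the p-values below measure only the spread between these arrays, which may be technical.

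When a cell lacks amino acids or its endoplasmic reticulum (ER) is overloaded with unfolded protein, stress kinases phosphorylate the translation factor eIF2, general protein synthesis slows, and translation of the transcription factor ATF4 increases. ATF4, often with a C/EBP partner, switches on genes that make, import and spare amino acids, and regulators such as Ddit3 (CHOP), Trib3 and Chac1. A separate arm of the unfolded protein response acts through ATF6 and XBP1, which raise ER chaperones such as Hspa5 (BiP). Pluripotent cells in culture are known for a high demand for amino acids and one-carbon units.

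Promoter sites for factors of both arms are shown first, for members that were called often, such as Nupr1, Chac1 and Atf3, and for ER genes that were mostly not called. RefSeq promoters (GRCm38.p6, 250 bases before to 50 bases after the start) were found for 36 of the 39 genes; Cth, Slc7a5 and Slc7a3 had none. The C/EBP-ATF element was searched as TGATGNAA on both strands. It stood in 9 of these 36 genes (25.0%), against 3.97% of all 32851 promoters: 4 stress regulators, 3 enzymes, 1 transporter and, of the ER genes, Herpud1. The ER stress element was searched on both strands as CCAAT followed after 9 bases by CCACG. It stood in 6 of the 36 genes (16.7%), all of them ER chaperone genes, against 0.119% of all promoters. No member held both. Such a match is a description of the letters and not a bound site. The members were chosen as genes of these responses, so a higher share of these elements among them is no independent result. The part of these sites in the calls was not tested. Members were counted by gene, with a match in any promoter of the gene, and the background by promoter. The shares of members and of all promoters, here and below, are therefore in unlike units. The windows below are written 5′ to 3′ on the gene's strand, with the element in capitals and up to 20 bases on each side. The first 7 hold the C/EBP-ATF element:
Nupr1, chr7:126625553-126625600, minus strand: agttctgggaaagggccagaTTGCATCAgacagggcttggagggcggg
Chac1, chr2:119351029-119351076, plus strand: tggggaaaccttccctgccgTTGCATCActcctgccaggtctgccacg
Atf3, chr1:191183416-191183463, minus strand: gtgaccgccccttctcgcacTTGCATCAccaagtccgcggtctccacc
Herpud1, chr8:94386297-94386344, plus strand: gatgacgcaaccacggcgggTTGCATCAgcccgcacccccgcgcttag
Asns, chr6:7693210-7693252, minus strand: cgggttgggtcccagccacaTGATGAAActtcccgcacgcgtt
Pck2, chr14:55540143-55540190, plus strand: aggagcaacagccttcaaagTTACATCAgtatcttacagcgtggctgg
Slc7a11, chr3:50443652-50443699, minus strand: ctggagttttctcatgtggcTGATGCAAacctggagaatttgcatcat
Counted from the gene's start, the element begins at -110 in Nupr1 and in Atf3, -193 in Chac1, -112 in Herpud1 and -23 in Asns. Slc7a11 has a second one at -47, and Trib3 has one (TTACATCA) at 15, after its start. The next 4 windows hold the ER stress element:
Hspa5, chr2:34772005-34772063, plus strand: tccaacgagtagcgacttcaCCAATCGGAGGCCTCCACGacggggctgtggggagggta
Hsp90b1, chr10:86705618-86705676, minus strand: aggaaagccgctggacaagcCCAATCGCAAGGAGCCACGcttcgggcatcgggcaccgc
Pdia6, chr12:17266471-17266529, plus strand: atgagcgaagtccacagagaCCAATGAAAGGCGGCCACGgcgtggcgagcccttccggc
Dnajc3, chr14:118937807-118937865, plus strand: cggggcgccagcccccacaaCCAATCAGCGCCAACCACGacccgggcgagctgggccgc
Calr and Creld2 also carry it, and Hsp90b1 a second time at -107. The cyclic AMP response element TGACGTCA, also searched, stood only in Ppp1r15a among the members (1 of 36, 2.78%, against 1.79% of all promoters).

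The stress regulators were high in EpiLCs and ESCs, lower in PGCLCs of either route and lowest in cells taken from the embryo. The enzymes were high in EpiLCs and ESCs and lowest in E9.5 PGCs. On the probe sets used, most ER chaperones stayed nearly level. Over the 16 groups, the distance from the lowest to the highest group mean had a median of 2.50 log2 units for the 12 stress regulators, 2.24 for the 10 enzymes, 1.68 for the 4 transporters and 0.79 for the 12 ER genes. The median over all 15497 genes was 1.37. EpiLCs at 48 h were the highest group for 17 of the 38 members (44.7%), against 7.66% of all genes tested; 1 of the 17 was Cebpb, which passed the filter only through that group. E9.5 PGCs were the lowest group for 12 members (31.6%), against 10.4% of all genes, and E5.5 epiblast for 6 (15.8%), against 9.42%. Only 1 ER gene, Herpud1, was among the 12. These ranges are descriptions, with no test.

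**Figure D1:**
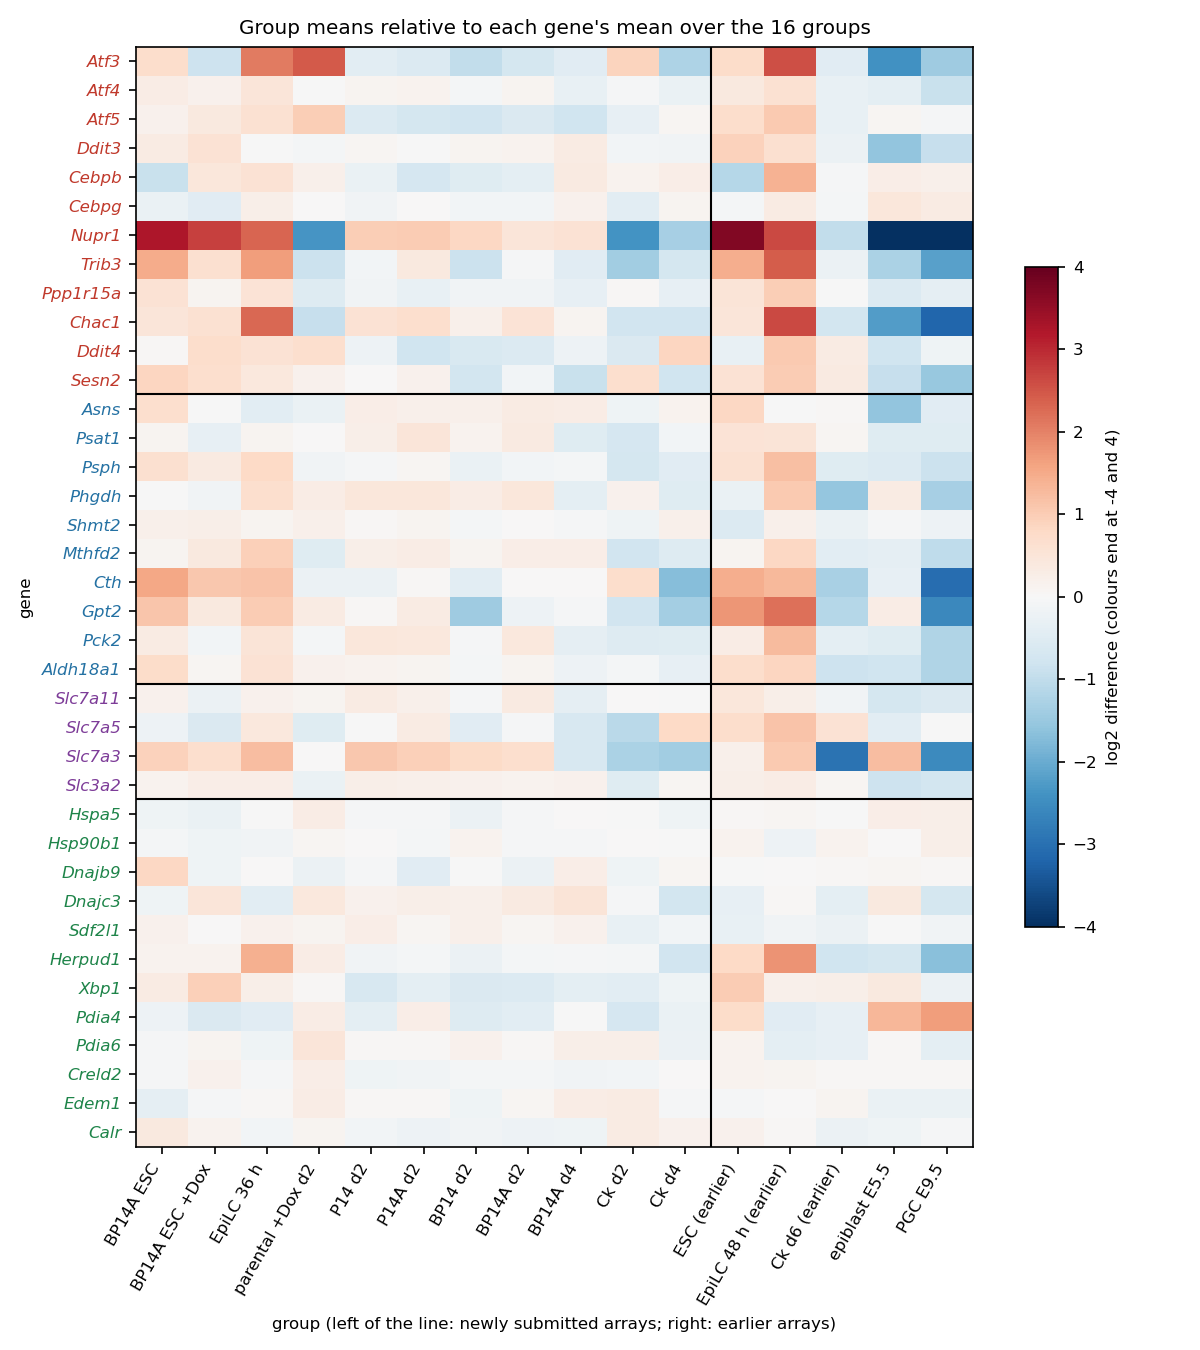
Group mean of each of the 38 measured genes minus its mean over the 16 groups, on the log2 scale; rows are genes coloured by role and columns are groups of 2 arrays, with the earlier arrays on the right. Red in the EpiLC and ESC columns and blue in the embryo columns fill most regulator and enzyme rows, while most ER rows stay pale; colours saturate at 4 log2 units, and Nupr1 runs from 12.04 in the earlier ESCs to 1.19 in E9.5 PGCs.

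The mean log2 level of the 12 regulators was 9.67 and 9.33 in the arrays of EpiLCs at 48 h, 9.30 and 8.78 in EpiLCs at 36 h and 8.62 and 8.67 in BP14A ESCs. It was 7.79 and 8.09 in BP14A TF-PGCLCs at day 2 and 7.57 and 7.83 in Ck-PGCLCs at day 2. In the embryo it was 7.04 and 6.78 in E5.5 epiblast and 6.82 and 6.40 in E9.5 PGCs. The 2 embryo groups lay below every cultured array. The corresponding mean of the 10 enzymes was 11.49 and 11.77 in EpiLCs at 48 h and 9.53 and 9.38 in E9.5 PGCs. The mean of the 12 ER genes was 9.63 and 9.63 in those EpiLCs, against 9.53 and 9.35 in the PGCs. In these bulk samples, fewer cells of a type and less RNA per cell cannot be told apart.

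**Figure D2:**
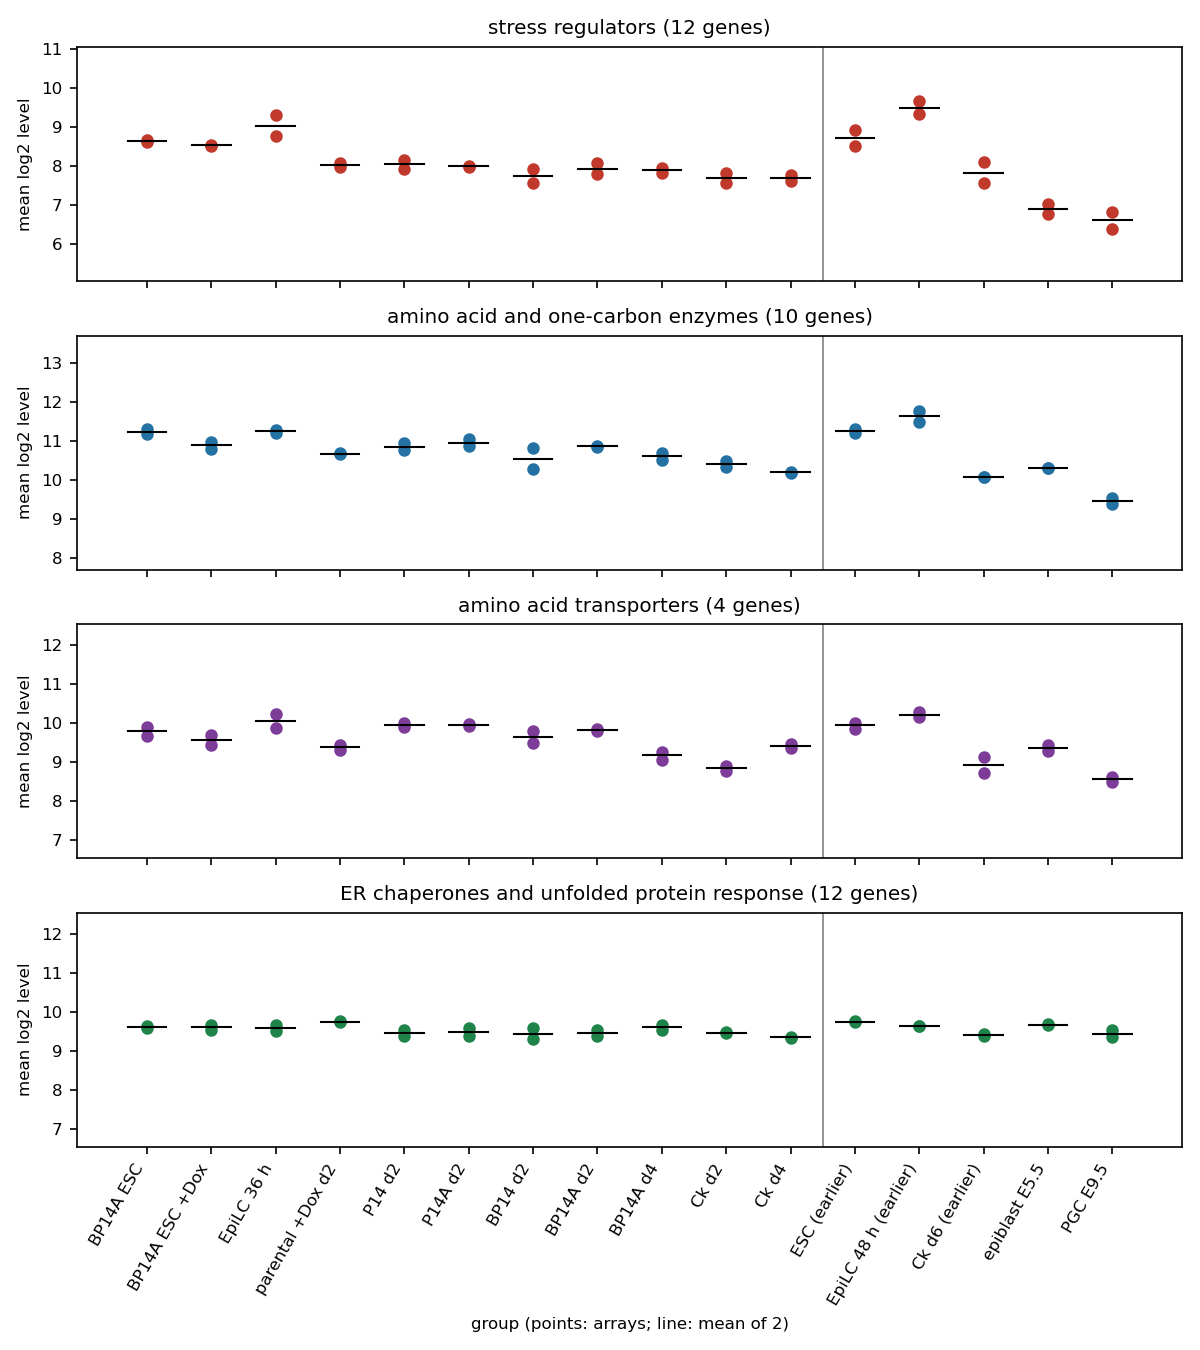
Mean log2 level of the genes of each role (y axis) in each array of the 16 groups (x axis); points are arrays and the line is the mean of the 2. The regulators run from 9.67 in an array of EpiLCs at 48 h to 6.4 in an array of E9.5 PGCs, whereas the ER genes stay between 9.3 and 9.77 in every array.

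The labels held against defining markers, whose summed level per array is given on the log2 scale. Naive markers stood at 13.8 to 13.84 in both ESC groups without doxycycline and at 9.80 to 10.48 in EpiLCs, and primed markers at 13.91 to 14.2 in EpiLCs. Germ cell markers stood at 13.53 to 13.88 in the factor-induced groups made from EpiLCs, 14.14 to 14.58 in Ck-PGCLCs of day 4 and 6 and in PGCs, 11.53 and 11.7 in day 2 Ck-PGCLCs, and 9.44 to 9.53 in the parental control. Prdm14 itself measured 8.47 in BP14A at day 2 and 2.86 in that control. The germ cell sum was also high in ESCs, at 12.27 to 12.99 without doxycycline and 13.26 and 13.16 with it. These values lay above those of day 2 Ck-PGCLCs, so a high sum is not particular to germ cells. Several groups carried markers of other cells. The 3 blood markers summed to 13.07 and 11.73 in E9.5 PGCs, against 5.47 to 6.58 elsewhere; 2 of the 3 lay above the filter level there, led by Hba-x at 12.56 and 11.44, while Ptprc was at 3.62 and 3.59. The sum of the 8 endoderm markers was 11.48 and 9.38 in E5.5 epiblast (all 8 above the filter level), 10.29 and 10.78 in the parental control (7 of 8) and 7.38 to 9.36 elsewhere. Mesoderm markers summed to 12.21 and 12.36 in day 2 Ck-PGCLCs (6 of 6). They summed to 10.03 and 9.95 in the parental control and 7.36 and 7.05 in EpiLCs at 36 h. RNA quality also differed: the Gapdh 5′ minus 3′ probe difference was -4.66 and -2.99 in BP14A at day 4 and below -2.5 in 1 array each of BP14 at day 2, EpiLCs at 36 h, BP14A ESCs and BP14A ESCs with doxycycline. The Actb probes ranked the arrays of each of these groups the other way. Their 5′ minus 3′ difference was -2.28 and -2.96 in BP14A at day 4 and -2.13 and -2.79 in EpiLCs at 36 h. Arrays of low RNA quality are therefore named so in this text by Gapdh alone. The part of these other cells and of RNA quality in the results was not tested, except where a value without the arrays concerned is given.

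A gene was called when its difference between group means in the limma fit had a Benjamini-Hochberg adjusted p under 0.05 over all 15497 genes and was at least 2-fold. By this rule EpiLCs at 36 h differed from BP14A ESCs in 4 of the 38 members, 3 higher and 1 lower, while 14.6% of all genes were called. The EpiLCs were of the parental clone and the ESCs of the BP14A line, so clone and state cannot be told apart there. Against EpiLCs at 36 h, 11 members were lower in Ck-PGCLCs at day 2 (28.9%, background 14.5%), 8 in the parental control (21.1%, background 12.9%) and 7 in BP14A at day 2 (18.4%, background 11.6%); none was higher in any of these. These 3 comparisons share the EpiLC arrays. Against the parental control, 4 members were called in BP14A at day 2 (10.5%, background 13.9%), 5 in P14 at day 2 (13.2%, background 12.9%) and 3 in Ck-PGCLCs at day 2 (7.89%, background 3.73%), again with shared control arrays. The control had doxycycline, which the labels do not give for Ck-PGCLCs. Cytokines and doxycycline therefore cannot be told apart in any difference between those groups. From day 2 to day 4, 5 members were called on the cytokine route (13.2%, background 12.5%) and 1 on the BP14A route (2.63%, background 1.43%). BP14A differed from Ck-PGCLCs in 8 members at day 2 (21.1%, background 12.6%), 7 of them higher, and in 4 at day 4 (10.5%, background 6.12%), 3 of them higher. The change from day 2 to day 4 differed between the routes in 5 members (13.2%, background 11.8%). Line, introduced factors, doxycycline and cytokines differed together between BP14A and Ck-PGCLCs, so these cannot be told apart in any difference between the routes. The EpiLCs at 36 h and the control were of the parental clone, so line and factors cannot be told apart against BP14A or P14. BP14A ESCs with doxycycline were lower than those without in 2 members (5.26%, background 9.41%). That group was also sorted for stella-ECFP and measured after 2 days, so doxycycline, sort and time cannot be told apart; between the group means Klf4 went from 9.95 to 5.85 and Pax6 from 3.99 to 8.19. Leaving out the array of low RNA quality in each group that held one gave 2 called members in place of 4 for EpiLCs against ESCs and 1 in place of 2 for doxycycline. Without array 2 of the doxycycline group both of the latter calls ended, and without array 1 of the BP14A ESCs 1 was kept. Without array 2 of day 4, 3 members in place of 5 were called on the cytokine route.

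The highest 2 counts came from the earlier arrays. Of the 38 members, 16 were higher in EpiLCs at 48 h than in E5.5 epiblast and none was lower (42.1%), where 4.74% of all genes were called. Day 6 Ck-PGCLCs were lower than EpiLCs at 48 h in 14 members and higher in none (36.8%, background 18.6%). EpiLCs at 48 h differed from ESCs in 5 members (13.2%, background 14.4%), among them Cebpb, which passed the filter only through those EpiLCs, E9.5 PGCs from E5.5 epiblast in 7 (18.4%, background 15.8%), and day 6 Ck-PGCLCs were higher than E9.5 PGCs in 5 (13.2%, background 7.36%). Without array 1 of the PGCs the last 2 counts were 11 and 8. PGCs carried the blood markers given above, with fibroblast markers at 9.3 and 8.51 (3 of 4 above the filter level; 6.66 to 8.42 elsewhere) and neural markers at 8.41 and 7.28 (3 of 3; 4.71 to 8.37 elsewhere). Epiblast carried the endoderm markers and trophoblast markers at 10.32 and 10.74 (4 of 4), which also stood at 9.68 and 10.66 in the parental control (3 of 4) and at 7.41 to 9.11 elsewhere. Their part in these counts was not tested. Several of these shares lay near their background: the 2 contrasts of EpiLCs with ESCs, the 2 contrasts of factor-induced cells with the parental control, the cytokine step from day 2 to day 4, the difference between the routes in that step, and PGCs against epiblast. Over the 17 comparisons of 2 groups, 14 members were never called, 9 of them ER genes. The other 24 were called 109 times in all, of which 55 fell to the regulators, 31 to the enzymes, 14 to the transporters and 9 to the ER genes. The share of all genes tested that were never called was not computed, so these counts are not read as high or low.

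**Figure D3:**
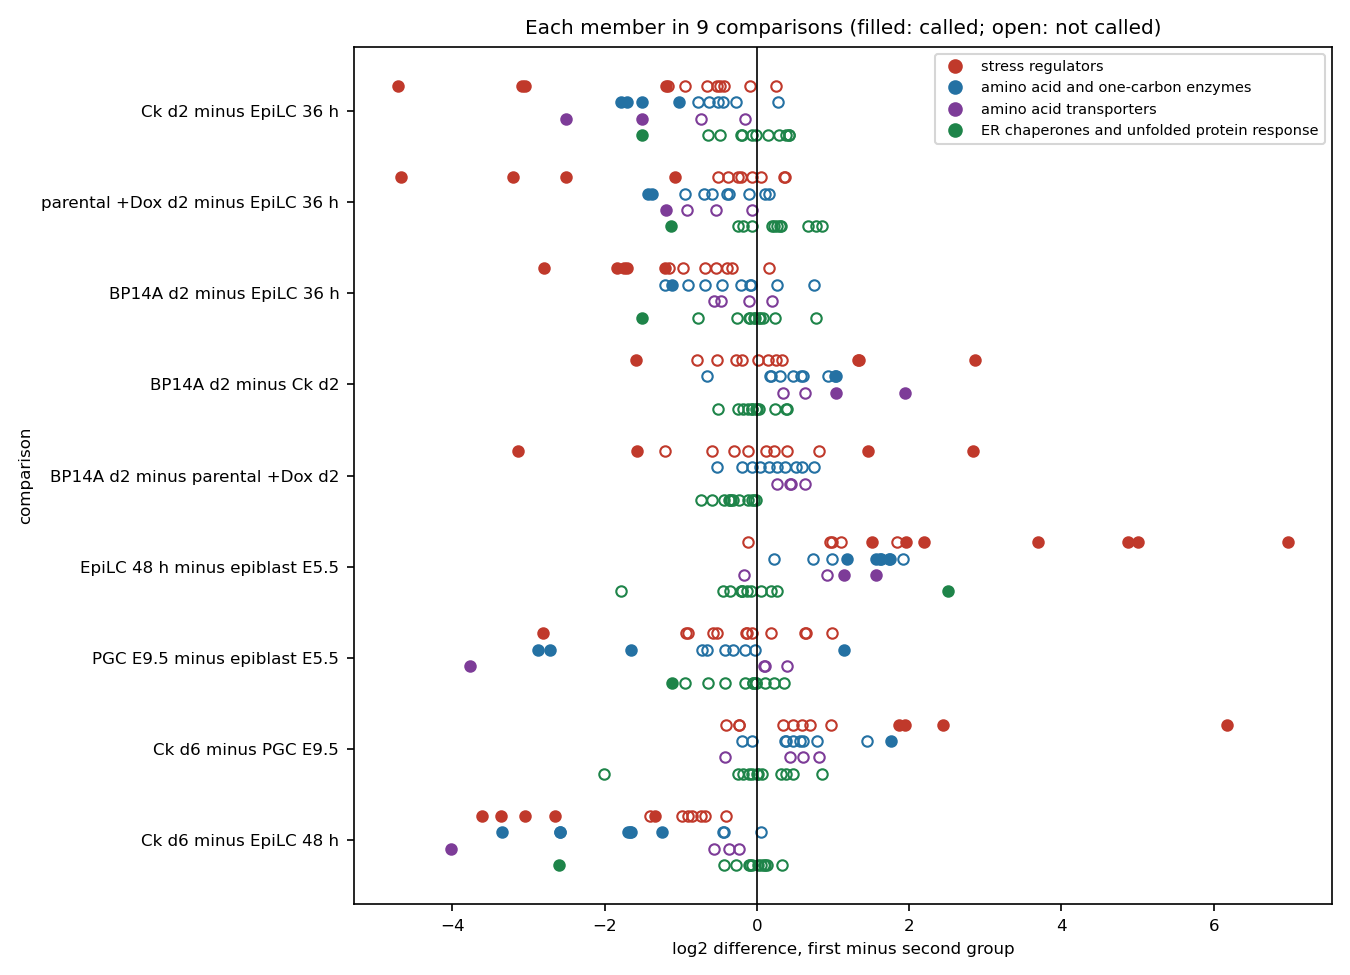
Log2 difference between group means (x axis, first minus second group) of each of the 38 genes in 9 comparisons (y axis), coloured by role; filled points passed the call rule and open points did not. In EpiLCs at 48 h against E5.5 epiblast, 16 points are filled and all lie on the higher side, with Nupr1 at 6.97.

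Of the stress regulators, Nupr1, a small stress-induced chromatin-associated protein, spanned the widest range. It measured 11.54 and 11.61 in the arrays of BP14A ESCs, 12.25 and 11.82 in the earlier ESCs, 11.04 and 10.27 in EpiLCs at 36 h and 10.56 and 11.38 at 48 h. In aggregates it measured 5.73 and 6.15 in Ck-PGCLCs at day 2 and 5.65 and 6.29 in the parental control. In the factor-induced aggregates it measured 9.35 and 9.28 (P14), 9.27 and 9.45 (P14A), 9.11 and 9.20 (BP14) and 9.08 and 8.54 (BP14A). All 8 factor-induced arrays of day 2 lay above all 4 arrays of the other aggregates and below every ESC and EpiLC array. Among the aggregates of day 2 the summed naive markers were also highest in those 8 arrays, at 12.79 to 13.13. Unlike Nupr1, they set day 2 Ck-PGCLCs, at 11.08 and 11.43, apart from the control, at 8.43 and 9.04. In day 4 Ck-PGCLCs the naive sum was 13.17 and 13.21, with Nupr1 at 6.77 and 7.22. The part of the naive markers in the Nupr1 differences was not tested. Nupr1 was called in 13 of 17 comparisons. Against EpiLCs at 36 h it was 26.2-fold lower in Ck-PGCLCs at day 2 (log2 difference -4.71, SE 0.33, adjusted p = 3.69e-09) and 25.7-fold lower in the parental control (log2 difference -4.68, SE 0.33, adjusted p = 4.08e-09), but 3.59-fold lower in BP14A (log2 difference -1.84, SE 0.33, adjusted p = 0.000397). Against the parental control it was 10.2-fold higher with Prdm14 alone (log2 difference 3.35, SE 0.33, adjusted p = 2.79e-07) and 7.15-fold higher in BP14A (log2 difference 2.84, SE 0.33, adjusted p = 2.03e-06). BP14A also exceeded Ck-PGCLCs 7.31-fold at day 2 (log2 difference 2.87, SE 0.33, adjusted p = 2.08e-06) and 3.74-fold at day 4 (log2 difference 1.90, SE 0.33, adjusted p = 0.000829). On the cytokine route Nupr1 then rose 2.08-fold from day 2 to arrays of 6.77 and 7.22 at day 4 (log2 difference 1.06, SE 0.33, adjusted p = 0.0265). That call ended without array 1 of day 2, without array 2 of day 4 or with the mean of its probe sets. Over the alternatives the difference ran from 0.83 to 1.29.

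In the embryo Nupr1 stood at 4.18 and 3.82 in E5.5 epiblast and 0.71 and 1.67 in E9.5 PGCs. Both group means lay below the filter level of 4.05, so differences against these groups are imprecise. There, EpiLCs at 48 h exceeded epiblast by 6.97 log2 units (SE 0.33, adjusted p = 1.27e-10). Day 6 Ck-PGCLCs, at 7.49 and 7.23, exceeded PGCs by 6.17 (SE 0.33, adjusted p = 1.13e-09). They lay 12.2-fold below EpiLCs at 48 h (log2 difference -3.61, SE 0.33, adjusted p = 7.39e-08). Nupr1 is counted among the 7 members called between PGCs and epiblast, but with both means below the filter level no size is read from that difference. The 2 probe sets for Nupr1 gave the same order of these groups, the dimmer one with 10.49 in EpiLCs at 48 h, 3.93 in epiblast and 2.06 in PGCs. Nupr1 was also 2.09-fold lower in EpiLCs at 48 h than in the earlier ESCs (log2 difference -1.07, SE 0.33, adjusted p = 0.0229), a call that ended when array 1 of either group was left out.

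Chac1, an enzyme that degrades glutathione and a target of ATF4 and CHOP, peaked in EpiLCs. Its arrays measured 11.10 and 10.35 in EpiLCs at 36 h and 11.17 and 10.97 at 48 h, against 8.93 and 8.89 in BP14A ESCs and 8.92 and 8.90 in the earlier ESCs. It was therefore 3.51-fold higher in EpiLCs at 36 h (log2 difference 1.81, SE 0.20, adjusted p = 1.29e-06) and 4.47-fold higher at 48 h (log2 difference 2.16, SE 0.20, adjusted p = 1.68e-07). Ck-PGCLCs at day 2 measured 7.55 and 7.74, the parental control 7.41 and 7.62 and BP14A 9.11 and 8.85. Against EpiLCs this was 8.43-fold lower with cytokines (log2 difference -3.08, SE 0.20, adjusted p = 1.67e-09), 9.23-fold lower in the control (log2 difference -3.21, SE 0.20, adjusted p = 1.09e-09) and 3.35-fold lower in BP14A (log2 difference -1.74, SE 0.20, adjusted p = 3.63e-06). As with Nupr1, the factor-induced arrays lay above both other kinds of aggregate: BP14A exceeded the control 2.76-fold (log2 difference 1.46, SE 0.20, adjusted p = 1.88e-05) and Ck-PGCLCs 2.52-fold (log2 difference 1.33, SE 0.20, adjusted p = 6.18e-05). P14, at 8.91 and 9.09, exceeded the control 2.8-fold (log2 difference 1.48, SE 0.20, adjusted p = 1.78e-05). At day 4 the arrays were 8.58 and 8.51 for BP14A and 7.58 and 7.72 for Ck-PGCLCs, under 2-fold apart and not called (log2 difference 0.89, SE 0.20, adjusted p = 0.00703).

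In the embryo Chac1 measured 5.92 and 6.45 in epiblast and 5.40 and 5.11 in PGCs. EpiLCs at 48 h exceeded epiblast 29.5-fold (log2 difference 4.88, SE 0.20, adjusted p = 2.6e-11), and day 6 Ck-PGCLCs, at 7.69 and 7.72, exceeded PGCs 5.47-fold (log2 difference 2.45, SE 0.20, adjusted p = 1.36e-07) while lying 10.3-fold below EpiLCs (log2 difference -3.36, SE 0.20, adjusted p = 2.86e-10). Every embryo array was below every cultured array for this gene.

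Trib3, a pseudokinase that ATF4 induces and that damps ATF4 and AKT activity, was likewise high in EpiLCs, with 10.35 and 9.98 at 36 h and 10.92 and 10.91 at 48 h. ESCs were close to EpiLCs at 36 h, with 9.92 and 10.04 for BP14A ESCs. Trib3 measured 6.89 and 7.35 in Ck-PGCLCs at day 2, 7.59 and 7.72 in the control and 8.26 and 8.66 in BP14A. The difference from EpiLCs was 8.23-fold with cytokines (log2 difference -3.04, SE 0.28, adjusted p = 1.21e-07), 5.68-fold in the control (log2 difference -2.51, SE 0.28, adjusted p = 1.66e-06) and 3.24-fold in BP14A (log2 difference -1.70, SE 0.28, adjusted p = 0.000177), each time lower. BP14A exceeded Ck-PGCLCs 2.54-fold at day 2 (log2 difference 1.34, SE 0.28, adjusted p = 0.00141), but its difference from the control (log2 difference 0.81, SE 0.28, adjusted p = 0.0438) was under 2-fold and not called. Embryo arrays measured 7.38 and 7.07 in epiblast and 6.46 and 6.20 in PGCs. EpiLCs at 48 h exceeded epiblast 12.9-fold (log2 difference 3.69, SE 0.28, adjusted p = 7.3e-08), and day 6 Ck-PGCLCs (8.57 and 7.96) exceeded PGCs 3.84-fold (log2 difference 1.94, SE 0.28, adjusted p = 7.98e-05) and lay 6.27-fold below EpiLCs (log2 difference -2.65, SE 0.28, adjusted p = 5.07e-07).

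**Figure D4:**
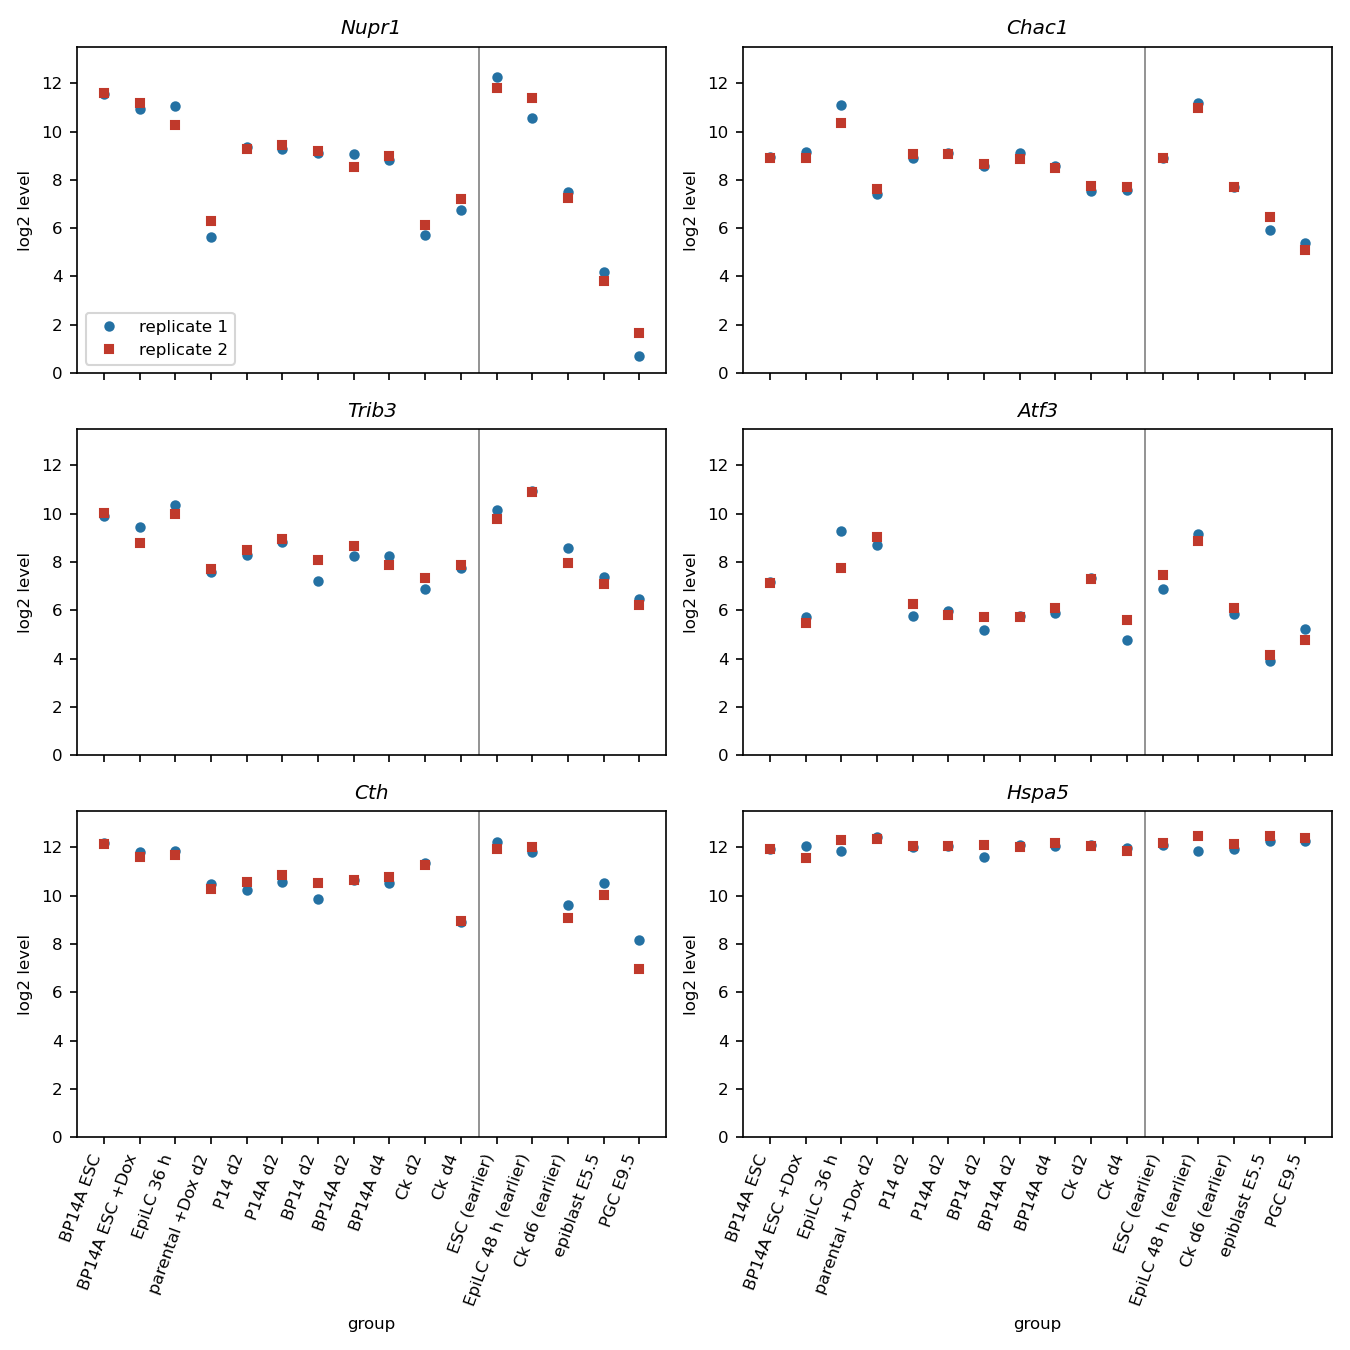
Log2 level (y axis) of 6 genes in both arrays of each of the 16 groups (x axis; circles replicate 1, squares replicate 2; the grey line separates the earlier arrays). Nupr1 and Chac1 are higher in the factor-induced groups than in the parental control and day 2 Ck-PGCLCs, Atf3 is highest in EpiLCs and the control, and Hspa5 stays between 11.58 and 12.48.

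Atf3, a stress-induced repressor and activator of the ATF family, went the other way in the aggregates. The parental control measured 8.70 and 9.04, in the range of EpiLCs at 48 h (9.16 and 8.88) and at 36 h (9.27 and 7.76). Ck-PGCLCs measured 7.34 and 7.31 at day 2, and the factor-induced groups measured 5.77 and 6.24 (P14), 5.95 and 5.81 (P14A), 5.18 and 5.73 (BP14) and 5.76 and 5.70 (BP14A). All 8 factor-induced arrays lay below both Ck-PGCLC arrays, which lay below both control arrays. Against the control, Atf3 was 8.79-fold lower in BP14A (log2 difference -3.14, SE 0.36, adjusted p = 1.55e-06), 7.25-fold lower in P14 (log2 difference -2.86, SE 0.36, adjusted p = 5.62e-06) and 2.91-fold lower with cytokines (log2 difference -1.54, SE 0.36, adjusted p = 0.0116). The last call ended without either Ck-PGCLC array or without array 2 of the control. BP14A lay 3.02-fold below Ck-PGCLCs at day 2 (log2 difference -1.59, SE 0.36, adjusted p = 0.00261) and 6.9-fold below EpiLCs (log2 difference -2.79, SE 0.36, adjusted p = 1.03e-05).

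On the cytokine route Atf3 then fell 4.37-fold to 4.78 and 5.61 at day 4 (log2 difference -2.13, SE 0.36, adjusted p = 0.000186), while BP14A stood at 5.87 and 6.10. Atf3 was called lower in Ck-PGCLCs at day 2 than in EpiLCs at 36 h (log2 difference -1.19, SE 0.36, adjusted p = 0.0182). It was called higher in those EpiLCs than in BP14A ESCs (log2 difference 1.38, SE 0.36, adjusted p = 0.00716). Neither was called without array 1 of the EpiLCs, which had a Gapdh 5′ minus 3′ difference of -3.03. The first call ended in 6 of 13 alternatives, among them the deposited values, median centring and without either Ck-PGCLC array. Over the alternatives the differences ran from -1.95 to -0.44 and from 0.63 to 2.13. The earlier arrays gave the same direction for EpiLCs at 48 h over ESCs, whose arrays stood at 6.88 and 7.45 (log2 difference 1.85, SE 0.36, adjusted p = 0.000636). Day 6 Ck-PGCLCs, at 5.84 and 6.10, lay 8.29-fold below EpiLCs at 48 h (log2 difference -3.05, SE 0.36, adjusted p = 1.75e-06). Epiblast, at 3.88 and 4.14 and with a mean below the filter level, was called lower than EpiLCs at 48 h (adjusted p = 3.12e-08), with no fold given for that reason. In BP14A ESCs Atf3 was 7.17 and 7.11 without doxycycline and 5.74 and 5.46 after 2 days with it, 2.9-fold lower (log2 difference -1.54, SE 0.36, adjusted p = 0.00494), a call that ended without array 2 of the doxycycline group (adjusted p = 0.0564).

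Atf5, a related factor that ATF4 controls, showed a similar order in the aggregates, with 8.21 and 7.97 in the control, 6.70 and 6.86 in Ck-PGCLCs and 6.48 and 6.54 in BP14A. It was lower than the control in BP14A (log2 difference -1.58, SE 0.26, adjusted p = 0.000143), in P14 (log2 difference -1.52, SE 0.26, adjusted p = 0.000229) and in Ck-PGCLCs (log2 difference -1.31, SE 0.26, adjusted p = 0.00361), the last not without array 1 of the control (adjusted p = 0.0597). It was also lower in BP14A than in EpiLCs at 36 h, which measured 7.78 and 7.66 (log2 difference -1.21, SE 0.26, adjusted p = 0.00233), and lower in day 6 Ck-PGCLCs than in EpiLCs at 48 h (log2 difference -1.34, SE 0.26, adjusted p = 0.000556). Where Nupr1 and Chac1 were higher in factor-induced cells than in the control, Atf3 and Atf5 were lower, so the regulators did not move as a block. In that contrast the median over the 12 regulators was 0, and over all genes it was 0.05.

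Endoderm and mesoderm markers stood higher in the control than in the factor-induced groups. In BP14A at day 2 the summed mesoderm markers were 7.03 and 6.64 (2 of 6 above the filter level, against 5 of 6 in the control) and the endoderm sum 7.82 and 7.75 (6 of 8, against 7 of 8). Their part in the Atf3 and Atf5 differences was not tested. Foxa2 led the endoderm markers of the control with 9.93 and 10.52, while Ttr, Apoa1 and Afp were at 3.66 to 4.81 there.

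Atf4 mRNA itself was abundant everywhere, from 11.12 to 12.9 over the 32 arrays, and was called in none of the 17 comparisons. Its group means still had EpiLCs at 48 h highest (12.40 and 12.90) and PGCs lowest (11.12 and 11.18). Cebpg, a partner of ATF4, and Ddit4 (REDD1), an inhibitor of mTORC1, were also never called. Ddit4 differed by up to 2.17 between the 2 arrays of a group. Ddit3 (CHOP), which promotes cell death under lasting stress, was called once: it measured 7.86 and 8.39 in EpiLCs at 48 h and 6.12 and 5.74 in epiblast, 4.58-fold apart (log2 difference 2.20, SE 0.25, adjusted p = 1.01e-05). With the mean of all its probe sets the difference was 0.84 and no longer 2-fold. Ppp1r15a (GADD34), which returns eIF2 to its unphosphorylated state, measured 9.67 and 9.17 and 7.92 and 7.90 in the same groups (log2 difference 1.51, SE 0.23, adjusted p = 0.000236). It was also lower in the parental control, at 7.91 and 7.93, than in EpiLCs at 36 h (log2 difference -1.07, SE 0.23, adjusted p = 0.00171). That call ended in 4 of 13 alternatives, among them the deposited values, median centring and without array 1 of those EpiLCs. Sesn2, a leucine sensor that restrains mTORC1, fell from 9.89 and 10.18 to 8.58 and 8.55 on the cytokine route (log2 difference -1.47, SE 0.42, adjusted p = 0.0162). It was higher in EpiLCs at 48 h than in epiblast (log2 difference 1.96, SE 0.42, adjusted p = 0.0054) and in day 6 Ck-PGCLCs than in PGCs (log2 difference 1.87, SE 0.42, adjusted p = 0.00485). Each of these 3 Sesn2 calls ended when 1 array was left out: array 2 of day 2 or either array of day 4, array 2 of the epiblast, and array 1 of the Ck-PGCLCs or array 2 of the PGCs. Cebpb lay below the filter level in 15 of 16 groups. Its single call, EpiLCs at 48 h over ESCs, came from arrays of 5.40 and 3.22 against 2.56 and 1.03 and ended without array 1 of the EpiLCs; since the filter let Cebpb pass only where it was high, nothing is read from it.

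Against EpiLCs at 36 h, 4 of the 10 enzymes were called lower in Ck-PGCLCs at day 2 (40%, background 14.5%). In the parental control 2 were lower (20%, background 12.9%). BP14A at day 2 was lower in 1, Cth (10%, background 11.6%), which is near the background. Against EpiLCs at 48 h, 7 were lower in day 6 Ck-PGCLCs (70%, background 18.6%). None was called higher in any of these. Phgdh, Psat1 and Psph make serine from a glycolytic intermediate, in that order. Phgdh measured 12.39 and 12.54 in EpiLCs at 48 h and 10.06 and 9.69 in day 6 Ck-PGCLCs, 6.03-fold lower (log2 difference -2.59, SE 0.18, adjusted p = 2.23e-09). It was 11.75 and 11.70 in epiblast and 10.46 and 9.70 in PGCs, 3.13-fold lower (log2 difference -1.65, SE 0.18, adjusted p = 9.81e-07). The earlier ESCs lay below EpiLCs at 48 h and measured 11.31 and 11.00 (log2 difference 1.31, SE 0.18, adjusted p = 2.02e-05). Psph measured 11.27 and 10.82 in EpiLCs at 36 h and 9.59 and 9.47 in Ck-PGCLCs at day 2, 2.85-fold lower (log2 difference -1.51, SE 0.18, adjusted p = 3.19e-06). Between EpiLCs at 48 h, at 11.14 and 11.75, and day 6 the fall was 3.23-fold (log2 difference -1.69, SE 0.18, adjusted p = 5.51e-07), and epiblast, at 9.63 and 9.77, lay 3.35-fold below those EpiLCs (log2 difference 1.75, SE 0.18, adjusted p = 3.23e-06). Psat1 varied little. It was 12.42 and 12.28 in BP14A and 11.27 and 11.35 in Ck-PGCLCs at day 2 (log2 difference 1.04, SE 0.19, adjusted p = 0.000356), which came under 2-fold without array 1 of BP14A or with the mean of its probe sets.

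Mthfd2, the mitochondrial folate enzyme, followed the regulators more closely. It measured 11.75 and 11.24 in EpiLCs at 36 h, 9.77 and 9.82 in Ck-PGCLCs at day 2, 9.96 and 10.17 in the control and 11.00 and 10.62 in BP14A. It was lower than in EpiLCs with cytokines (log2 difference -1.70, SE 0.27, adjusted p = 8.87e-05) and in the control (log2 difference -1.43, SE 0.27, adjusted p = 0.000579), and higher in BP14A than with cytokines (log2 difference 1.02, SE 0.27, adjusted p = 0.00976). The last call ended without array 1 of either group (highest adjusted p over the alternatives 0.116). At 48 h, EpiLCs exceeded both epiblast (log2 difference 1.18, SE 0.27, adjusted p = 0.00885) and day 6 Ck-PGCLCs (log2 difference -1.24, SE 0.27, adjusted p = 0.00141). The first of these ended without array 2 of the EpiLCs or array 1 of the epiblast, the second without array 2 of the EpiLCs or array 1 of the Ck-PGCLCs. Shmt2, which feeds it with one-carbon units, was never called on the probe set used (mean over all arrays 10.99). That probe set had group means of 11.18 in EpiLCs at 48 h, 10.95 in epiblast and 10.73 in day 6 Ck-PGCLCs. A second one, nearly as bright (10.98), had 11.63, 10.52 and 10.17 in these groups and was not tested alone.

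Cth, the cystathionine gamma-lyase that makes cysteine, and Gpt2, the mitochondrial alanine aminotransferase, had the widest ranges of the enzymes. Cth measured 12.18 and 12.15 in BP14A ESCs, 11.85 and 11.69 in EpiLCs at 36 h, 10.54 and 10.04 in epiblast and 8.18 and 6.96 in PGCs. PGCs lay 6.6-fold below epiblast (log2 difference -2.72, SE 0.29, adjusted p = 7.27e-07) and 3.38-fold below day 6 Ck-PGCLCs (log2 difference 1.76, SE 0.29, adjusted p = 0.000339), which stood at 9.60 and 9.06. Those Ck-PGCLCs lay 6.02-fold below EpiLCs at 48 h (log2 difference -2.59, SE 0.29, adjusted p = 1.18e-06), and epiblast 3.08-fold (log2 difference 1.62, SE 0.29, adjusted p = 0.00127). The last call was lost when the earlier arrays were fitted alone (adjusted p = 0.103). On the cytokine route Cth stayed at 11.34 and 11.29 at day 2 and fell 5.21-fold to 8.93 and 8.94 at day 4 (log2 difference -2.38, SE 0.29, adjusted p = 5.9e-06). BP14A measured 10.66 and 10.66 and 10.54 and 10.78 on those days, so at day 4 it exceeded Ck-PGCLCs 3.31-fold (log2 difference 1.73, SE 0.29, adjusted p = 0.000678). Both the control, at 10.49 and 10.29 (log2 difference -1.38, SE 0.29, adjusted p = 0.00176), and BP14A at day 2 (log2 difference -1.11, SE 0.29, adjusted p = 0.0104) lay below EpiLCs. The BP14A call ended without either BP14A array or array 1 of the EpiLCs (adjusted p = 0.0962 at most).

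Gpt2 measured 10.75 and 10.80 in EpiLCs at 48 h, 7.35 and 7.50 in day 6 Ck-PGCLCs, 8.85 and 8.85 in epiblast and 5.97 and 6.00 in PGCs. Ck-PGCLCs lay 10.2-fold below the EpiLCs (log2 difference -3.35, SE 0.62, adjusted p = 0.000316) and PGCs 7.3-fold below epiblast (log2 difference -2.87, SE 0.62, adjusted p = 0.00154). Its difference between EpiLCs at 36 h and Ck-PGCLCs at day 2 (log2 difference -1.79, SE 0.62, adjusted p = 0.0401) was called but ended in 7 of 13 alternatives, among them without array 2 of the EpiLCs and without either Ck-PGCLC array (highest adjusted p 0.282). In BP14 at day 2 the arrays were 3.01 apart, at 5.62 and 8.63, and the lower one had a Gapdh 5′ minus 3′ difference of -4.07 against -0.37.

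Asns, the asparagine synthetase and a standard target of ATF4, was highest in ESCs and lowest in epiblast. It measured 13.05 and 12.94 in BP14A ESCs and 12.07 and 11.74 in EpiLCs at 36 h, 2.13-fold lower (log2 difference -1.09, SE 0.14, adjusted p = 4.68e-06), the reverse of Chac1 in the same comparison; without array 2 of the EpiLCs the difference was under 2-fold. Epiblast measured 10.70 and 10.80, 2.97-fold below EpiLCs at 48 h (log2 difference 1.57, SE 0.14, adjusted p = 4.25e-07). PGCs, at 11.79 and 11.99, exceeded epiblast 2.21-fold (log2 difference 1.14, SE 0.14, adjusted p = 2.51e-06) and Asns was the only member called higher in PGCs than in epiblast. Asns did not pass the call rule between EpiLCs and any aggregate tested.

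Pck2, the mitochondrial phosphoenolpyruvate carboxykinase, measured 10.77 and 11.71 in EpiLCs at 48 h, 9.48 and 9.53 in epiblast and 9.54 and 9.62 in day 6 Ck-PGCLCs. EpiLCs exceeded epiblast 3.32-fold (log2 difference 1.73, SE 0.23, adjusted p = 5.14e-05) and Ck-PGCLCs 3.17-fold (log2 difference -1.66, SE 0.23, adjusted p = 1.09e-05). Its fall from EpiLCs at 36 h to Ck-PGCLCs at day 2 (log2 difference -1.02, SE 0.23, adjusted p = 0.00211) lay at the 2-fold limit and ended in 6 of 13 alternatives, among them without array 1 of either group. Aldh18a1, the first enzyme of proline synthesis, measured 11.10 and 11.10 in EpiLCs at 48 h, 9.71 and 9.23 in epiblast and 9.63 and 9.23 in day 6 Ck-PGCLCs. Both differences from EpiLCs were called, 3.09-fold (log2 difference 1.63, SE 0.20, adjusted p = 3.32e-05) and 3.18-fold (log2 difference -1.67, SE 0.20, adjusted p = 3.13e-06). In all, 7 of the 10 enzymes were lower in day 6 Ck-PGCLCs than in EpiLCs at 48 h, where 18.6% of all genes were called in either direction. The median over the 10 was -1.67, against -0.03 over all genes tested.

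Among the amino acid transporters, Slc7a3, which imports arginine and lysine, was called in 8 of the 17 comparisons, the most of the 4. It measured 12.07 and 12.07 in EpiLCs at 36 h and 11.99 and 12.13 in E5.5 epiblast, and EpiLCs at 48 h measured 12.06 and 11.72, which was not called against epiblast (log2 difference -0.17, SE 0.15, adjusted p = 0.591). Ck-PGCLCs measured 9.60 and 9.52 at day 2, the control 10.91 and 10.83 and BP14A 11.50 and 11.51. The difference from EpiLCs was 5.69-fold with cytokines (log2 difference -2.51, SE 0.15, adjusted p = 6.03e-10) and 2.29-fold in the control (log2 difference -1.20, SE 0.15, adjusted p = 9.3e-06), both lower. BP14A was under 2-fold from EpiLCs and not called (log2 difference -0.56, SE 0.15, adjusted p = 0.0126), and it exceeded Ck-PGCLCs 3.85-fold (log2 difference 1.95, SE 0.15, adjusted p = 2e-08). Ck-PGCLCs were also below the control (log2 difference -1.31, SE 0.15, adjusted p = 1.32e-05), and P14, at 11.88 and 11.95, above it (log2 difference 1.04, SE 0.15, adjusted p = 4.05e-05). From day 2 to day 4 BP14A fell 2.45-fold to 10.10 and 10.33 (log2 difference -1.29, SE 0.15, adjusted p = 0.000179), the single member called in that step. Day 6 Ck-PGCLCs measured 8.12 and 7.63 and E9.5 PGCs 8.25 and 8.34. The first lay 16.2-fold below EpiLCs at 48 h (log2 difference -4.02, SE 0.15, adjusted p = 1.85e-12) and the second 13.6-fold below epiblast (log2 difference -3.77, SE 0.15, adjusted p = 2.97e-12).

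Slc7a5 (LAT1), which brings in leucine and other large neutral amino acids, fell and then rose on the cytokine route. It measured 10.60 and 10.64 in EpiLCs, 9.14 and 9.09 at day 2 (log2 difference -1.51, SE 0.36, adjusted p = 0.00392) and 11.19 and 10.76 at day 4, a rise of 3.63-fold (log2 difference 1.86, SE 0.36, adjusted p = 0.000779). BP14A measured 9.77 and 10.53 at day 2 and 9.56 and 9.53 at day 4. It lay above Ck-PGCLCs at day 2 (log2 difference 1.04, SE 0.36, adjusted p = 0.0478) and below them at day 4 (log2 difference -1.43, SE 0.36, adjusted p = 0.0135). The first call ended in 6 of 12 alternatives, among them without array 2 of BP14A or either Ck-PGCLC array (highest adjusted p 0.35). The second ended without either BP14A array or array 1 of the Ck-PGCLCs (highest adjusted p 0.151), and both BP14A arrays of day 4 had low RNA quality. Slc3a2, the chain that carries LAT1 and xCT to the membrane, was called once: it measured 12.05 and 12.40 in EpiLCs at 48 h and 11.09 and 11.08 in epiblast (log2 difference 1.14, SE 0.14, adjusted p = 3.31e-05), under 2-fold without array 2 of the EpiLCs. In the same groups Slc7a5 measured 11.72 and 10.94 and 9.96 and 9.56 (log2 difference 1.57, SE 0.36, adjusted p = 0.00897), a call that ended without array 1 of the EpiLCs or array 2 of the epiblast. Slc7a11 (xCT), which exchanges cystine for glutamate, stayed between 4.1 and 5.91 over all arrays and was never called.

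The change from day 2 to day 4 differed between the BP14A and cytokine routes in 5 members by the interaction test (13.2%, against a background of 11.8% of all genes). For Cth the BP14A change minus the cytokine change was 2.39 (SE 0.42, adjusted p = 0.000481) and for Atf3 2.38 (SE 0.51, adjusted p = 0.0027). Both fell on the cytokine route and were not called on the BP14A route. The summed mesoderm markers also went down on the cytokine route, from 12.21 and 12.36 to 9.41 and 9.4, and were 6.64 to 7.05 in the BP14A arrays of both days; their part was not tested. For Slc7a5 it was -2.47 (SE 0.51, adjusted p = 0.00221) and for Slc7a3 -1.18 (SE 0.22, adjusted p = 0.000833). For Psat1, with 12.42 and 12.28 then 11.48 and 11.55 in BP14A and 11.27 and 11.35 then 11.97 and 11.80 with cytokines, it was -1.42 (SE 0.27, adjusted p = 0.000979). None of these 5 was lost in any alternative. The number of members called was 5 with each array of the 4 groups left out in turn.

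Of the 12 ER chaperone and unfolded protein genes, 9 were called in none of the 17 comparisons, a count without a share over all genes beside it. Hspa5 (BiP), the main ER Hsp70, ran from 11.58 to 12.48 over the 32 arrays, and Hsp90b1 (GRP94), its Hsp90 partner, from 12.16 to 12.83. On the probe sets used, the range of group means of each was narrower than that of every member outside the ER genes. A dimmer probe set of Hsp90b1 had group means from 4.5 in the earlier ESCs to 8.22 in epiblast. The dimmer ones of Hspa5 had group means from 10.62 to 11.53 and from 8.48 to 9.47. Creld2, a stress-induced ER protein, ran from 9.59 to 10.19, Sdf2l1, which works with BiP, from 7.66 to 8.38, and Edem1, a mannosidase-like protein of ER-associated degradation, from 8.45 to 9.47. The disulfide isomerase Pdia6 ran from 11.14 to 12.32 and the lectin chaperone Calr from 8.54 to 9.92. Xbp1, the transcription factor of the chaperone arm, ran from 8.55 to 10.78. These 8 are among the 9 that were never called. A dimmer probe set of Xbp1 had group means from 6.68 in BP14 at day 2 to 9.6 in the earlier ESCs. In BP14A at day 2 against the parental control all 12 ER genes had a negative difference, with a median of -0.32 (0.05 over all genes), and none was called. Splicing of Xbp1 mRNA, by which this arm is switched on, is not told by this array.

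Pdia4, another disulfide isomerase, was also never called, but its group means were highest in the embryo. Its arrays measured 6.86 and 8.55 in epiblast and 6.95 and 9.17 in PGCs, against 5.92 and 5.91 in EpiLCs at 48 h. The 2 arrays of PGCs were 2.22 apart, the widest such gap for this gene. The difference of EpiLCs at 48 h minus epiblast was -1.79 (SE 0.70, adjusted p = 0.124). Dnajb9 (ERdj4) was 9.04 and 8.99 in BP14A ESCs and 8.05 and 7.97 with doxycycline, 2.01-fold lower (log2 difference -1.01, SE 0.19, adjusted p = 0.00108). That lay at the 2-fold limit and ended in 5 of 13 alternatives, among them without array 1 of the ESCs or array 2 of the doxycycline group. Dnajc3 (p58IPK), an ER co-chaperone, was 9.57 and 9.74 in BP14A at day 4 and 8.35 and 8.44 in Ck-PGCLCs (log2 difference 1.26, SE 0.18, adjusted p = 9.9e-05). It was 8.78 and 8.08 in PGCs and 9.72 and 9.34 in epiblast (log2 difference -1.11, SE 0.18, adjusted p = 7.48e-05). With the mean of all its probe sets neither difference reached 2-fold, and the second also ended without array 1 of the epiblast or array 2 of the PGCs.

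Herpud1, a membrane protein of ER-associated degradation, was the exception among the ER genes, called in 6 of the 17 comparisons. It is the one of them with a C/EBP-ATF element in its promoter window. The part of this element was not tested, and Slc7a11, which also holds it, was never called. Herpud1 measured 10.46 and 9.74 in EpiLCs at 36 h and 10.66 and 10.25 at 48 h. Its arrays stood at 8.95 and 8.65 in BP14A ESCs, 8.21 and 7.69 in epiblast and 7.67 and 6.32 in PGCs. Day 2 aggregates measured 8.68 and 8.51 with cytokines, 8.59 and 8.60 in BP14A and 9.08 and 8.86 in the control. EpiLCs at 48 h exceeded epiblast 5.68-fold (log2 difference 2.51, SE 0.32, adjusted p = 3.56e-05) and day 6 Ck-PGCLCs, at 8.10 and 7.61, 6.07-fold (log2 difference -2.60, SE 0.32, adjusted p = 2.93e-06). Against EpiLCs at 36 h it was lower with cytokines (log2 difference -1.51, SE 0.32, adjusted p = 0.00133), in BP14A (log2 difference -1.51, SE 0.32, adjusted p = 0.0017) and in the control (log2 difference -1.13, SE 0.32, adjusted p = 0.0132), and higher in those EpiLCs than in BP14A ESCs (log2 difference 1.30, SE 0.32, adjusted p = 0.00457). These 4 calls were lost when the arrays of low RNA quality, among them array 1 of the EpiLCs, were left out, with adjusted p of 0.0685 and 0.0839 for the first 2. Those of EpiLCs at 48 h were kept in every alternative run.

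Other genes of these pathways, on lists that hold no member, were called in smaller shares than the members. The members and lists were chosen with earlier results of these data known, so this contrast is no independent result. Of 72 listed genes, 67 were tested. Against EpiLCs at 36 h, 4 of the 67 were called in Ck-PGCLCs at day 2 (5.97%, 1 higher and 3 lower) and 4 in BP14A (5.97%, 3 higher, 1 lower). In EpiLCs at 48 h against epiblast 6 were called (8.96%, 5 higher and 1 lower), and in day 6 Ck-PGCLCs against EpiLCs at 48 h 8 (11.9%, 1 higher and 7 lower). All these shares but 1 lay below the background of their comparison; that of EpiLCs at 48 h against epiblast lay above its 4.74%. The 13 genes of the tRNA charging list, cytosolic synthetases that load amino acids onto tRNA and the exportin Xpot, gave 2 calls in all: Aars was higher in EpiLCs at 48 h than in epiblast (log2 difference 1.04, SE 0.12, adjusted p = 8.58e-06) and Yars lower in day 6 Ck-PGCLCs than in EpiLCs (log2 difference -1.19, SE 0.13, adjusted p = 6.09e-07). In Ck-PGCLCs at day 2 against EpiLCs all 13 had a negative difference, with a median of -0.34, and none was called. The 10 cytosolic heat shock genes tested gave 4 calls over the 18 comparisons.

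Slc7a1, a second transporter of cationic amino acids, was called more often than any other gene of these lists. It measured 10.81 and 10.65 in BP14A ESCs, 9.74 and 8.86 in EpiLCs at 36 h, 8.04 and 7.96 in Ck-PGCLCs at day 2, 8.16 and 7.85 in the control and 9.45 and 9.40 in BP14A. BP14A exceeded the control (log2 difference 1.43, SE 0.22, adjusted p = 7.27e-05) and Ck-PGCLCs (log2 difference 1.43, SE 0.22, adjusted p = 8.01e-05). Epiblast measured 6.72 and 7.04, 5.67-fold below EpiLCs at 48 h (log2 difference 2.50, SE 0.22, adjusted p = 6.76e-07). Aldh1l2, a mitochondrial folate enzyme, was dim but had the same order in the aggregates, with BP14A above the control (log2 difference 1.46, SE 0.37, adjusted p = 0.00603) and above Ck-PGCLCs (log2 difference 1.25, SE 0.37, adjusted p = 0.0188). Of the 19 other ER genes, Ero1l, the oxidase that supplies disulfide bonds, measured 10.67 and 10.37 in BP14A at day 2, 8.73 and 8.52 in the control and 8.53 and 8.48 in Ck-PGCLCs. It was 3.73-fold (log2 difference 1.90, SE 0.29, adjusted p = 6.06e-05) and 4.05-fold (log2 difference 2.02, SE 0.29, adjusted p = 3.29e-05) higher in BP14A. Derl3, a protein of ER-associated degradation, was 3.23-fold higher in BP14A than in the control (log2 difference 1.69, SE 0.19, adjusted p = 9.85e-07). Mbtps2, the protease that releases ATF6, was 2.8-fold higher in BP14A than in the control (log2 difference 1.48, SE 0.22, adjusted p = 4.85e-05) and 2.86-fold higher than in Ck-PGCLCs (log2 difference 1.52, SE 0.22, adjusted p = 4.22e-05). P14 gave like differences from the control for Ero1l (log2 difference 1.70, SE 0.29, adjusted p = 0.000213), Derl3 (log2 difference 1.45, SE 0.19, adjusted p = 7.91e-06) and Mbtps2 (log2 difference 1.54, SE 0.22, adjusted p = 3.42e-05), while Hspa5 (log2 difference -0.35, SE 0.20, adjusted p = 0.252) and the other chaperones of the set did not pass.

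The remaining calls on these lists were scattered. Of the sensors, Nfe2l2, an antioxidant factor, was lower in PGCs than in epiblast (log2 difference -1.71, SE 0.14, adjusted p = 1.3e-08) and Eif2ak4 (GCN2), the kinase that senses amino acid shortage, lower in EpiLCs at 36 h than in BP14A ESCs (log2 difference -1.07, SE 0.17, adjusted p = 6.9e-05). Eif2ak2 (PKR), a kinase that senses double-stranded RNA, was called higher in Ck-PGCLCs at day 2 than in EpiLCs (log2 difference 1.75, SE 0.33, adjusted p = 0.000455) from a mean of 2.65 in EpiLCs, below the filter level. Of the folate enzymes, Mthfd1l, which acts after Mthfd2 in mitochondria, was lower in day 6 Ck-PGCLCs than in EpiLCs at 48 h (log2 difference -1.60, SE 0.13, adjusted p = 1.48e-08) and in PGCs than in epiblast (log2 difference -1.42, SE 0.13, adjusted p = 8.11e-08). Mthfd2l, a close relative of Mthfd2, was lower in EpiLCs at 48 h than in epiblast (log2 difference -1.07, SE 0.32, adjusted p = 0.0408), against the direction of the members. Of the transporters, the glutamine carriers Slc1a5 (log2 difference -1.59, SE 0.20, adjusted p = 4.03e-06) and Slc38a2 (log2 difference -1.25, SE 0.19, adjusted p = 3.43e-05) were lower in day 6 Ck-PGCLCs than in EpiLCs. Slc7a6 was higher in BP14A at day 2 than in EpiLCs (log2 difference 1.55, SE 0.21, adjusted p = 2.14e-05) and than in the control (log2 difference 1.04, SE 0.21, adjusted p = 0.000979). The small heat shock protein Hspb1 was higher in EpiLCs at 48 h than in epiblast (log2 difference 2.45, SE 0.55, adjusted p = 0.00748) and Hspa1a lower in day 6 Ck-PGCLCs than in those EpiLCs (log2 difference -1.35, SE 0.33, adjusted p = 0.00398). The alternatives were run for the 39-gene set and not for these other genes.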

How the data were processed

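Expression was measured on 32 Affymetrix mouse arrays. The authors deposited 1 value per probe set and array, taken here as log2 from its range (0 to 14.59, array medians 4.62 to 4.78); the summarisation software is not given in the sources used here. Arrays give no read depth, and 2 per group limit the precision. Of 45101 probe sets, 64 controls were dropped, 34945 carried 1 symbol, 932 several and 9160 were not listed in the platform annotation; only those with 1 symbol were named. Values were quantile-normalised, the brightest probe set per gene was kept, and genes with at least 1 group mean at the 40th percentile (4.05) were fitted with limma 3.58.1 in R 4.3.3 as 16 group means (16 residual degrees of freedom), with 18 contrasts. Adjusted p-values are Benjamini-Hochberg over 15497 genes. The fit was tested on simulated data. No replicate arrays were identical (correlation 0.9663 to 0.986). The members and lists were chosen with earlier results of these data known. Every measured member is named, with statistics for called members with the largest changes in each role and comparison; of other pathway genes, those with the largest called changes were eligible and a part is printed. Same-numbered arrays deviated together in the 5 earlier groups (correlation 0.243 to 0.522). In the 11 newer groups they did so in part (above 0.1 in 25 of 55 pairs, -0.219 to 0.476, median 0.0727). The labels do not say what a number stands for, so what same-numbered arrays share is not known. The main fit had no term for it. Alternatives were the deposited or median-centred values, the mean of probe sets, no filter or a stricter one, a trended robust variance, a replicate block, separate fits, each array left out and, added after seeing the data, low RNA quality arrays left out. P14A and BP14 were measured but entered no contrast.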

Additional observations from a re-analysis of the deposited data

Results flagged for a closer look

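The change from day 2 to day 4 differed between the BP14A and cytokine routes in 5 genes of the set, by the interaction term of the limma fit. That is 13.2% of the 38 members, near the 11.8% of all genes called in this contrast. The BP14A change minus the cytokine change was 2.38 log2 units for Atf3 and 2.39 for Cth, which fell on the cytokine route. It was -2.47 for Slc7a5, which rose on the cytokine route, -1.18 for Slc7a3, which fell on the BP14A route, and -1.42 for Psat1. Both BP14A arrays of day 4 had a Gapdh 5′ minus 3′ difference below -2.5. The alternatives included leaving out the lower of them alone, and leaving out the low RNA quality array of each group that held one. Over all alternatives the difference between the routes ran from 1.97 to 2.8 for Atf3 and from 2.27 to 2.5 for Cth. It ran from -2.85 to -2.09 for Slc7a5, from -1.29 to -1.06 for Slc7a3 and from -1.5 to -1.09 for Psat1.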

How the results depend on the processing

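Of 114 called differences of members, the interaction included, 81 kept their direction and call in every alternative run and 33 lost the call in at least 1; none reversed. Every called difference of Chac1, Trib3 and Slc7a3 was kept. The number of members called moved by more than 1.5 times in these cases. For BP14A ESCs with against without doxycycline (2) it was 1 with the deposited values, with median centring and without the arrays of low RNA quality, and 0 to 3 with an array left out. For EpiLCs at 36 h against ESCs (4) it was 2 without those arrays. For the cytokine route from day 2 to day 4 (5) it was 3 with the mean of probe sets and 3 to 4 with an array left out. For EpiLCs at 48 h against ESCs (5) it was 3 when newer and earlier arrays were fitted separately. With an array left out it was 6 to 11 for PGCs against epiblast (7) and 4 to 8 for day 6 Ck-PGCLCs against PGCs (5). The cause was not tested. With the replicate number as a block, all 114 calls were kept; EpiLCs at 48 h against epiblast gave 18 called members in place of 16, and the largest other change was 1 member. Genes near or below the filter level, such as Nupr1 in embryo cells and Cebpb in 15 groups, have imprecise differences.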
